A study of Homo sapiens with 26 samples.

Results

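H3K27ac peak lists of the HCT116 RAD21 line before Nutlin-3a were compared with those of WT HCT116 cells at the same time point. These were 4 of the 10 H3K27ac lists and of the 26 samples of the series, taken by their labels: 2 of the RAD21 line at 0 h and 2 of WT at 0 h. HCT116 is a human colorectal carcinoma line with wild-type p53. The RAD21 line is a derivative in which, by the methods of the study, RAD21 carries a degron tag and is removed with the auxin analogue 5-Ph-IAA before collection. The labels give only the line name and the treatment, and the names of the peaks in these lists carry the word rad21KD. No list of the tagged line with RAD21 in place was used here, so loss of RAD21 and any other property of this derivative cannot be told apart. At 0 h both lines had received DMSO, the vehicle. The other groups were 2 WT lists after 1 h of Nutlin-3a, 2 WT lists after 10 h and 2 lists of the RAD21 line after 1 h. Nutlin-3a blocks the binding of HDM2 to p53 and so activates p53. The labels do not say that replicates came from separate cultures, so each p-value measures the spread between these lists.

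Acetylation of histone H3 at lysine 27 (H3K27ac) marks active promoters and enhancers, and H3K4me1 marks enhancers that may or may not be active. Cohesin is a ring-shaped complex of SMC1A, SMC3, RAD21 and STAG1 or STAG2. It is loaded with the help of NIPBL, released by WAPL and stopped by CTCF, and it folds chromatin into loops by extrusion. RAD21 closes the ring, and its degradation removes loops and the domains they form. RFX transcription factors bind a sequence called the X-box in the promoters of genes for cilia, the microtubule-based projections that most cells build when they leave the cell cycle.

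The following stretches of the GRCh37 plus strand are printed because promoters with the same 9 letters ranked higher in the RAD21 line at 0 h, as given further on. The capitals mark an X-box of the RFX factors, written GTTGCCATG or, where it lies on the minus strand, CATGGCAAC. Each stretch holds 61 bases, lies in the 250 bases before an annotated start and overlaps no annotated exon. The genes are PRKAR2B (chr7:106684966-106685026), encoding a regulatory subunit of protein kinase A, PHC1 (chr12:9066946-9067006), a Polycomb protein, ANKRD13D (chr11:67056664-67056724), which binds ubiquitin, PLXNB1 (chr3:48471060-48471120), a semaphorin receptor, and MAPRE2 (chr18:32621242-32621302), a microtubule end-binding protein.
PRKAR2B: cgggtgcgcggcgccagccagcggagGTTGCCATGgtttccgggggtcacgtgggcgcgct
PHC1: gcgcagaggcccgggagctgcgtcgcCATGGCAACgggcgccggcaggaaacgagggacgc
ANKRD13D: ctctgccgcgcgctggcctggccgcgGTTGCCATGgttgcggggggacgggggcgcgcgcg
PLXNB1: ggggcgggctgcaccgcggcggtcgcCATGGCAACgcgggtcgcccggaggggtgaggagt
MAPRE2: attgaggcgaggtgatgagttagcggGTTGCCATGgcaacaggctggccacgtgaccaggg

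The next stretch is printed because the region round it lost rank in every comparison of the RAD21 line with WT. It is the 300-base window round the summit of an intergenic region 663 kb from the start of IRS1, the insulin receptor substrate, at chr2:227001751-227002050 of GRCh37, and it overlaps no annotated exon. The capitals mark a match to TGANTCA, the binding letters of AP-1, the dimer of FOS and JUN proteins. No other tested region beside IRS1 has these letters in its window, those that also lost rank in every comparison included.
IRS1 side: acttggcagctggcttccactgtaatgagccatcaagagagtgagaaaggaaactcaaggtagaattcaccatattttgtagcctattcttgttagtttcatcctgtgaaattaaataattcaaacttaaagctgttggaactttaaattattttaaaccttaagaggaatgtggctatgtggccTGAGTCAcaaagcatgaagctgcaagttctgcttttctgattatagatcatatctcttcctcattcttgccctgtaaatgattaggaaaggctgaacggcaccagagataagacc

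The 4 untreated lists held 33976 and 32739 peaks in WT and 40683 and 43417 in the RAD21 line. The peak lists do not give read totals, and summit heights are given in their place. A median height follows which peaks a list called as well as depth. The largest height was 2965 and 2581 in WT 0 h and 1608 and 2190 in the RAD21 line at 0 h. The median number of fragments over a summit was 58 and 53 in WT 0 h, 17 and 22 in the RAD21 line at 0 h and 22 to 52 in the other 6 lists. The names of the WT 0 h peaks and of 1 WT 1 h list lack the word input that the other 7 lists carry. In these 3 lists the background the peak caller set against each peak was 8.69 to 12.3 times larger under strong than under weak peaks, against 1.00 to 1.44 times in the other 7. Fold enrichment and p-values of the WT 0 h lists are therefore on another footing, and values were compared as ranks of summit height within each list. Ranks show which regions moved relative to others and cannot show a change shared by all regions.

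Libraries also stood apart in ways the labels do not give. Telomere-like repeats (10 or more copies of the repeat unit in the 300-base window of the summit) were found in 14 regions, of which 3 and 4 were called in WT 0 h and 2 and 4 in WT 10 h, but 10 to 12 in each list of WT 1 h and of the RAD21 line. Over the 18757 regions called in all 10 lists, rank scores of replicates correlated at 0.98 in WT 0 h and 0.96 in the RAD21 line at 0 h. The RAD21 line at 0 h correlated at 0.83 to 0.85 with WT 0 h, at 0.86 to 0.87 with the same line at 1 h and at 0.85 to 0.86 with WT 1 h. WT 1 h and the RAD21 line at 1 h were more alike (0.92 to 0.93) than either was to its own 0 h lists. These correlations are across regions that share a library and are descriptions. Of 13 colon epithelial markers, 9 had a promoter called in all 10 lists, and KRT20, VIL1, CDX1 and LGALS4 had none in the untreated lists. Of 16 markers of other cell types 15 had none, and TWIST1 was called in all 10.

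Before Nutlin the RAD21 line differed from WT in rank at many regions, in both directions. The largest gains lay at promoters of ciliary genes, among them CEP126, TTC26, TMEM67 and WDR35, and the largest losses at promoters included EPS8, a regulator of actin at microvilli and filopodia, and HSPA5, the main chaperone of the endoplasmic reticulum. Ranks were turned into normal scores (0 is the median region of a list and 1 is a shift of 1 standard deviation of the standard normal), and differences are RAD21 line minus WT, each with 2 lists a group. Against WT 0 h, 4000 of 18757 regions (21.3%) were higher and 5534 (29.5%) lower (limma, Benjamini-Hochberg adjusted p under 0.05 over all regions). Differences ran from -2.52 to 3.91, with 5th and 95th percentiles of -0.73 and 1.01 and a median SE of 0.10. Ranked by fold enrichment instead of height, 1949 were higher and 2171 lower, and with the form of the peak name as a term 2548 and 3002. Scores have the same mean in every list, so the differences average to 0 by construction and the number of losses against gains is no result in itself.

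The WT 10 h lists carry the word input, and the same RAD21 0 h lists were set against them as a check. Here 4897 regions (26.1%) were higher and 5868 (31.3%) lower. Called alike against WT 0 h and WT 10 h, and termed held below, were 3243 regions higher (17.3%) and 4402 lower (23.5%). Ranked by fold enrichment, the larger number turned, with 572 higher and 337 lower against WT 10 h and 345 and 207 held. The comparisons share the RAD21 0 h lists, so a held call is a check of the WT side only. WT 10 h was also close to WT 0 h (correlation 0.94) and alike in its few telomere-like repeats, so that check is a limited one. Nutlin time differs in the check, and its part in a difference from WT 10 h was not tested.

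A further pair of comparisons shared no list with the first. In 1 of them the WT side was again WT 10 h, which stood with WT 0 h at the telomere-like repeats. The part of such a library difference in calls against WT 10 h was not tested. The RAD21 line at 1 h was higher than WT 10 h in 4610 regions (24.6%) and lower in 4746 (25.3%). Against WT 1 h, which has the same Nutlin time, it was higher in 2969 (15.8%) and lower in 2951 (15.7%). Without replicate 2 of the RAD21 line at 1 h the number higher fell to 1929. Of the 4000 regions higher at 0 h, 45.5% were higher against WT 10 h too (background 24.6%), but 18.7% against WT 1 h (background 15.8%), where 14.3% were lower and the median difference was 0.04. Of the 5534 lower at 0 h, 46.3% were again lower against WT 10 h and 19.4% against WT 1 h, where 16.5% were higher and the median was -0.004. Only 443 regions (2.36%) were higher in all 4 comparisons and 715 (3.81%) lower. The line difference at 1 h minus that at 0 h, tested in the same fit, was above 0 in 4396 regions (23.4%) and below 0 in 3613 (19.3%).

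The highest-ranking held promoters belonged to cilia. CEP126, whose product sits at the base of the cilium, stood at percentiles 1.32 and 0.493 of the tested regions in WT 0 h and at 87.8 and 87.0 in the RAD21 line at 0 h (chr11:101785054-101787004). It stood at 50.2 and 37.7 in WT 1 h, 4.40 and 5.81 in WT 10 h and 41.7 and 38.0 in the RAD21 line at 1 h. The RAD21 0 h lists were thus above the other 8, and the WT 0 h and 10 h lists lowest. The difference at 0 h was 3.55 (SE 0.14, adjusted p = 3.76e-15) and that at 1 h was -0.10 (adjusted p = 0.620).

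TTC26, a subunit of the IFT-B train that carries cargo along the cilium, went from percentiles 3.82 and 1.42 in WT 0 h to 92.5 and 90.7 in the RAD21 line, with 42.4 and 30.7 in WT 1 h and 35.2 and 25.2 in the line at 1 h. Its difference was 3.36 (SE 0.20) at 0 h and -0.18 at 1 h. TMEM67, a membrane protein of the transition zone that gates the cilium, went from 31.8 and 44.9 to 99.7 and 99.8 (3.12, SE 0.16). WDR35, a subunit of the IFT-A train that works in return transport, went from 5.20 and 13 to 95.7 and 94.6 (3.04, SE 0.14). At none of these 3 promoters did the difference at 1 h pass the test (-0.18 to 0.01, SE 0.14 to 0.20).

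Other held promoters with the largest gains were TUBA1A, an alpha-tubulin (2.93, SE 0.11), TMEM231 of the ciliary transition zone (2.84), LZTFL1, which regulates trafficking of the BBSome coat complex (2.79), CCDC30 (2.84) and RHOXF1, a homeobox gene (3.01). In each of these 9 promoters both RAD21 0 h lists lay above all other lists, while the 4 lists at 1 h lay between.

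**Figure D1:**
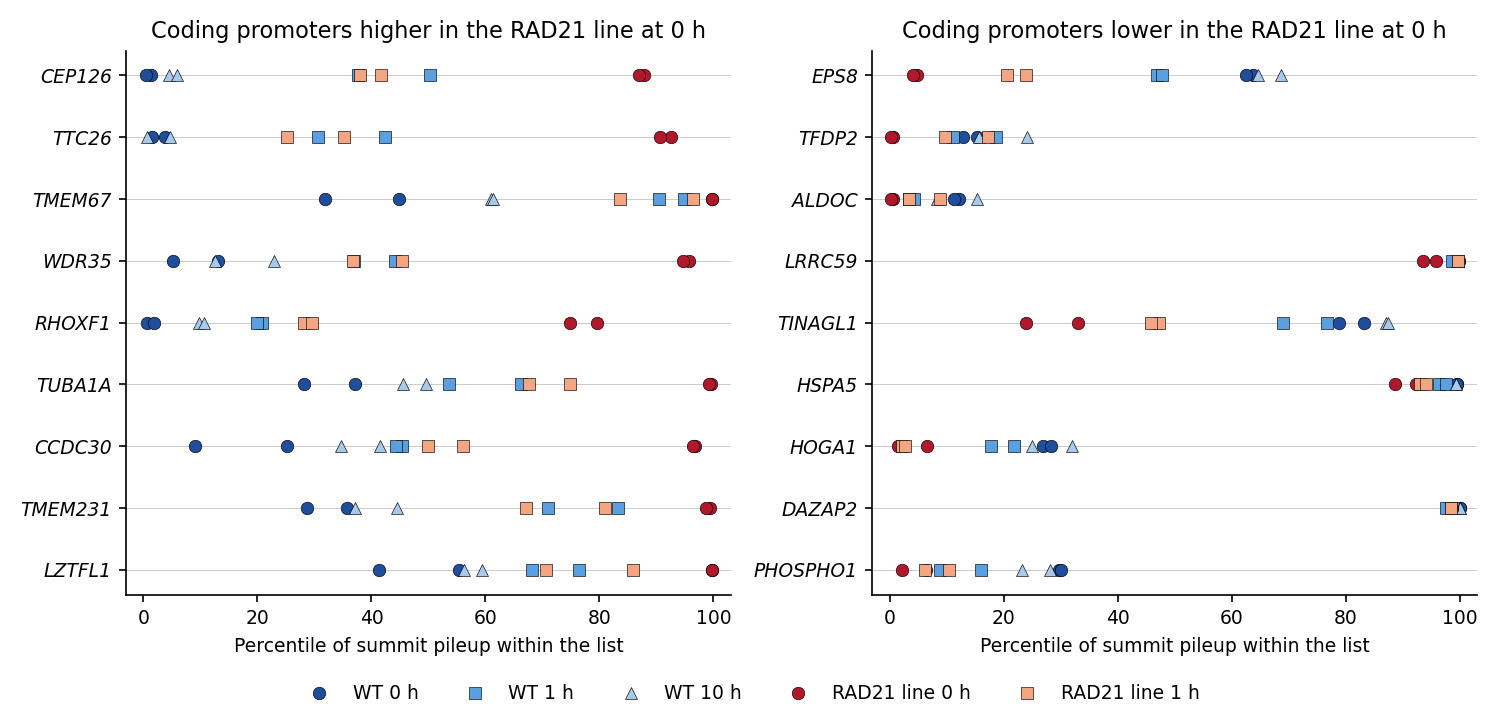
Percentile of summit pileup among the 18757 tested regions (x axis, 1 point a list, coloured by group) for the coding promoters with the largest held gains and losses in the RAD21 line at 0 h (y axis). At CEP126 the RAD21 0 h lists sit at 87.8 and 87.0 and the WT 0 h lists at 1.32 and 0.493, and at EPS8 they sit at 4.88 and 4.06 against 63.7 and 62.6.

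A list of 64 genes of cilia and RFX factors was drawn up after these values had been seen, so its counts are a description. Promoters of 61 genes were tested, in 64 regions. Of these, 49 were higher at 0 h (76.6%, background 21.3%) and 3 lower, and the same number, 49, were held higher with 1 held lower. The list median was 1.10 against WT 0 h, 1.01 against WT 10 h and 0.07 at 1 h against WT 1 h, where all regions had medians of -0.06, -0.04 and 0.01. Its median percentile was 51.5 and 53 in WT 0 h, 58.0 and 56.5 in WT 10 h, 62.4 and 59.1 in WT 1 h, 89.3 and 89.0 in the RAD21 line at 0 h and 69.8 and 65.4 in that line at 1 h. Both RAD21 0 h lists lay above all other 8 lists in 49 of the 64 regions, against 1664 of 10615 coding promoters (15.7%).

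Gains were found in each module of the cilium named here. Among the IFT-B genes, TTC26 (3.36) was followed by IFT22 (2.32), IFT57 (1.96), IFT172 (1.92) and IFT81 (1.57), and among the IFT-A genes IFT140 gained 1.48 and IFT122 0.74. Of the BBSome and its assembly genes, BBS12 gained 1.89, BBS1 1.18 and BBS2 1.16. The transition zone genes TCTN1, RPGRIP1L and MKS1 gained 2.40, 2.22 and 1.84, and DNAH5, a motor of motile cilia, gained 2.76. The kinesin KIF3A, which drives outward transport, gained 1.35. Promoters of RPGRIP1L, MKS1, IFT140 and IFT122 are shared with the divergent genes FTO, LPO, CRAMP1 and MBD4, and a shared promoter has 1 value. The TTC26 region is also a promoter region of ZC3HAV1. Among the members that were not held higher were BBS7 (0.04), TTC8 (-0.18), CC2D2A (0.23), INPP5E (-0.21), IFT80 (0.20) and DNAI1 (-0.10). BBS10 was lower at 0 h (-0.34, limma adjusted p = 0.00346), so members of a module did not all gain.

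Of the RFX factors on the list, RFX2 rose from percentiles 44.2 and 43.3 in WT 0 h to 98.2 and 97.7 in the RAD21 line (2.21) and RFX1 gained 0.95. RFX3 (0.11, adjusted p = 0.421) and RFX7 (0.06, adjusted p = 0.701) did not pass the test. RFX5, which acts on MHC class II genes and not on cilia, was lower (-0.67, adjusted p = 7.04e-06).

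The X-box letters shown above, likewise chosen after these values were seen, were searched on both strands from 250 bases before to 50 bases after the start nearest to each coding promoter region. They were present at 80 of 10615 coding promoters (0.754%, Wilson 95% interval 0.606 to 0.937). They were present at 63 of 2062 held higher promoters (3.06%, 2.40 to 3.89) and at 3 of 2638 held lower (0.114%, 0.0387 to 0.334). Of the 200 promoters with the largest gains 8.00% held them. Only 2 of the 64 regions of the ciliary list did, so most promoters with the letters lie outside that list. The list is partial, and genes of cilia such as RSPH14, given below, are among those outside it. The shorter form GTTGCC was present at 13.4% of coding promoters and at 51.6% of the ciliary list. A match of letters is not a measured site.

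Of the 80 promoters with the full letters, 67 were higher at 0 h (83.8%, against 21.3% of all regions and 21.5% of coding promoters) and 4 lower. Held were 63 higher and 3 lower, the latter FEN1, METTL3 and ATAT1. Their median difference was 0.86 against WT 0 h, 0.85 against WT 10 h and 0.02 at 1 h, where 17 were higher and 16 lower. Their median percentile was 63.2 and 62.4 in WT 0 h and 89.3 and 88.6 in the RAD21 line at 0 h. Besides DNAH5, the largest differences were at RSPH14, a radial spoke protein of motile cilia (2.59), PRKAR2B (2.56), FHAD1 (2.48), CSTPP1 (2.24) and IQCE (2.10). The RSPH14 region is also a promoter region of RAB36. Of the other genes whose stretches are printed above, PHC1 gained 1.57, ANKRD13D 1.45, PLXNB1 1.41 and MAPRE2 1.29.

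**Figure D2:**
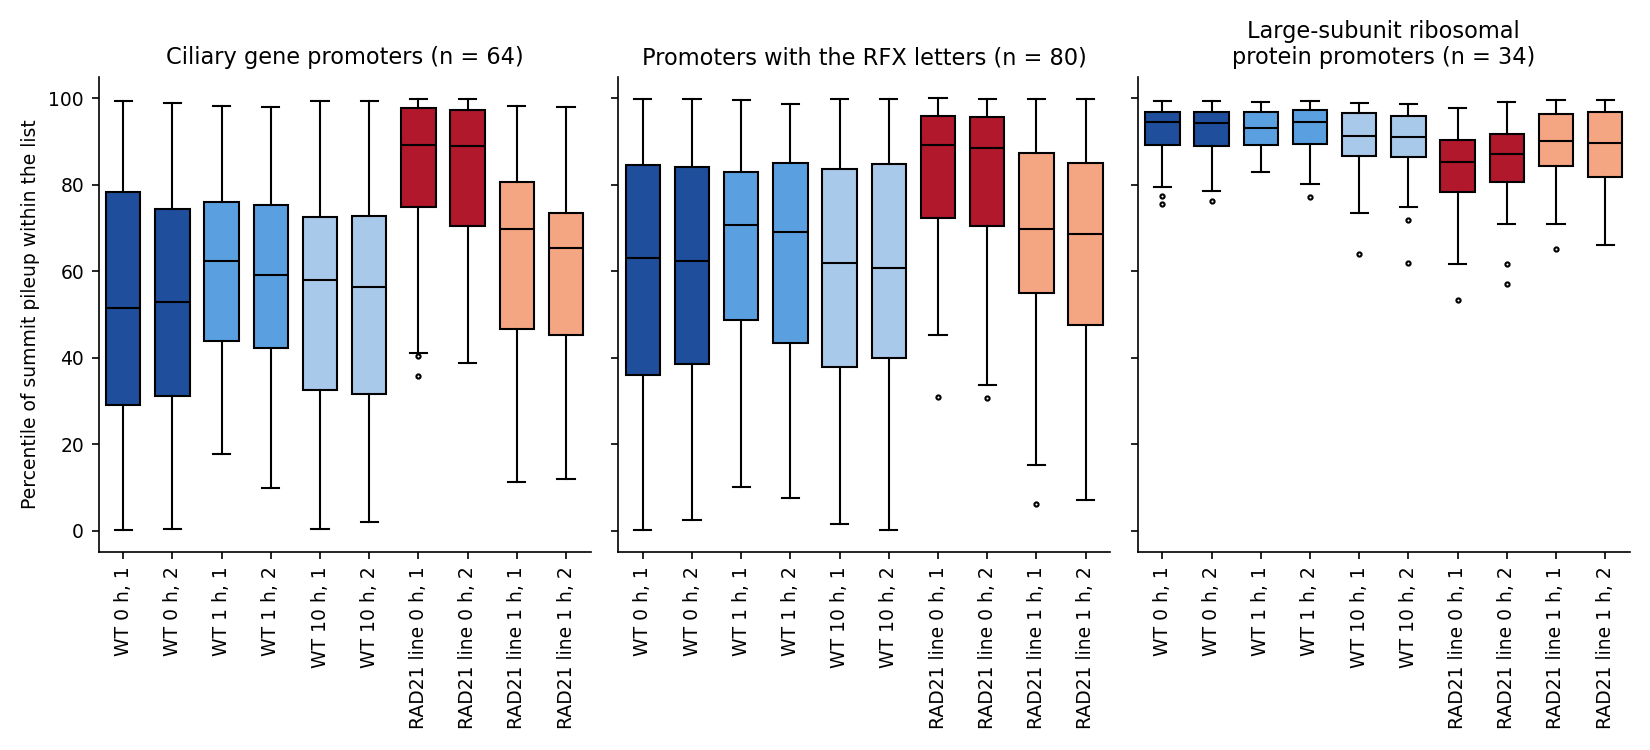
Percentile of summit pileup within each list (y axis) for the regions of the ciliary list, the coding promoters with the X-box letters and the large-subunit ribosomal protein promoters, 1 box a list (x axis) with its median and quartiles, whiskers to the farthest value within 1.5 interquartile ranges of the box, and points for values beyond. Ciliary promoters have a median percentile of 89.3 and 89.0 in the RAD21 0 h lists and of 51.5 to 69.8 in the other 8.

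The largest losses at promoters were smaller than the largest gains. EPS8 stood at percentiles 63.7 and 62.6 in WT 0 h and at 4.88 and 4.06 in the RAD21 line at 0 h (difference -2.04, SE 0.11, adjusted p = 2.12e-13). It stood at 47.0 and 47.8 in WT 1 h and 24.0 and 20.6 in the line at 1 h, so the line lists were below all WT lists at both times (-0.70 at 1 h, adjusted p = 3.32e-05). TINAGL1, a secreted matrix protein, went from 78.9 and 83.2 to 24.0 and 33.0 (-1.46, and -0.70 at 1 h). HOGA1, a mitochondrial enzyme of hydroxyproline breakdown, was at 26.9 and 28.3 against 6.50 and 1.40 (-1.26, and -1.13 at 1 h). TFDP2, a partner of E2F (-1.66), the aldolase ALDOC (-1.54), DAZAP2 (-1.26) and PHOSPHO1 (-1.25) were held lower, and their differences at 1 h (-0.22 to 0.18) did not pass the test. TFDP2 and ALDOC rested on weak peaks, at percentiles 11.3 to 15.4 in WT 0 h.

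Several losses lay at the strongest promoters. HSPA5 stood at percentile 99.5 in both WT 0 h lists and at 88.6 and 92.3 in the RAD21 line (-1.27, SE 0.10). Ranked by fold enrichment its value was 0.74 and did not pass the test (adjusted p = 0.340). LRRC59, which anchors ribosomes to the endoplasmic reticulum, went from 99.9 in both lists to 93.5 and 95.9 (-1.48, SE 0.13) but was higher in the line at 1 h (0.39, adjusted p = 0.0270). Of 25 promoter regions of heat shock and protein folding genes, 12 were held lower (48.0%, background 23.5%) and 4 held higher (16.0%, background 17.3%), with a median of -0.31 at 0 h and 0.12 at 1 h. The largest losses there after HSPA5 were CANX, a lectin chaperone (-1.20), XBP1, a factor of the unfolded protein response (-0.89), and SDF2L1 (-0.86).

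Promoters of large-subunit ribosomal proteins were mostly lower against WT 0 h. Of 34 regions, 27 were lower at 0 h (79.4%, background 29.5%) and 0 higher, and 19 were held lower (55.9%, background 23.5%). The median was -0.47, with -0.24 against WT 10 h and -0.25 at 1 h against WT 1 h. At 1 h against WT 1 h 17 were lower (50.0%, background 15.7%) and 2 higher (5.88%, background 15.8%). For the line at 1 h against WT 10 h the median was -0.09. There 13 were lower (38.2%, background 25.3%) and 11 higher (32.4%, background 24.6%). RPL27, whose promoter region also covers IFI35, stood at percentiles 98.0 and 97.9 in WT 0 h and 85.9 and 89.2 in the line (-0.89). RPL5 (-0.84), RPL34 (-0.80) and RPL14 (-0.78) were next, and RPL13 (0.02) and RPL7 (0.004) did not pass. For the line at 1 h against WT 10 h RPL27 (-1.10), RPL34 (-0.71) and RPL5 (-0.40) were lower and RPL14 was higher (0.54). Both RAD21 0 h lists lay below all other lists in 16 of the 34, against 1921 of 10615 coding promoters. Ranked by fold enrichment, the median turned to 0.29, and that of the folding genes to 0.77, under the background difference described above.

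Most promoters of the cohesin genes themselves did not pass the test against WT 0 h. The RAD21 promoter stood at percentiles 88.3 and 89.9 in WT 0 h and 82.8 and 88.0 in the RAD21 line (-0.17, SE 0.11, adjusted p = 0.191), which is the promoter and says nothing of the protein. SMC1A (0.10), SMC3 (-0.04), STAG1 (0.20), STAG2 (0.14), WAPL (-0.03) and CTCF (-0.10) did not pass the test either, with SE of 0.09 to 0.10. Against WT 10 h, however, RAD21 (0.31, adjusted p = 0.0153), SMC1A (0.49), SMC3 (0.47), STAG1 (0.47) and STAG2 (0.61) were higher, as were 11 of the 21 regions of the cohesin and CTCF list (52.4%, background 26.1%). At 1 h against WT 1 h 8 of the 21 were higher (38.1%, background 15.8%), RAD21 (0.49) and STAG1 (0.45) among them. NIPBL was lower (-0.42, adjusted p = 2.85e-04) but higher at 1 h (0.41). Of the 21 regions 4 were held lower (19.0%, background 23.5%) and 0 higher (background 17.3%). Among the 4 were NIPBL and the cohesion genes CDCA5 (-0.37) and ESCO2 (-0.37), whose regions also cover ZFPL1 and CCDC25. Of 14 promoter regions of condensin and the SMC5-6 complex, 5 were held lower (35.7%), with NSMCE2 the lowest (-0.92), and 2 higher (14.3%), NCAPD3 (0.70) and NSMCE4A (0.60).

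Promoters of mitotic genes were mainly higher where they were called. Of 37 promoter regions of G2/M genes 17 were held higher (45.9%, background 17.3%) and 4 lower, and 11 were higher in all 4 comparisons (background 2.36%). The median was 0.21 at 0 h and 0.27 at 1 h. CENPF, a kinetochore protein, rose from percentiles 55.6 and 61.3 in WT 0 h to 95.7 and 94.4 (1.44, SE 0.09), KIF23, a kinesin of cytokinesis, by 1.03, and the cyclin CCNB1 by 1.01 and its kinase CDK1 by 0.63. All 4 were higher at 1 h too (0.40 to 0.66). The list's median percentile was 49.3 and 48.7 in WT 10 h and 63.3 to 67.2 in the other WT lists, so the comparison with WT 10 h (medians 0.48 and 0.86) includes a difference in Nutlin time. Of 40 regions of G1/S genes 7 were held higher (17.5%, background 17.3%) and 3 lower (7.50%, background 23.5%), with RFC2 (1.13) the highest and PCNA (-0.66) the lowest. Cell cycle phase was not measured in these lists.

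Lists of stress and signalling genes are set beside all tested regions, of which 17.3% were held higher and 23.5% lower. Of 24 integrated stress response regions 13 were held higher (54.2%), among them PHGDH (1.06) and ASNS (0.92), which make serine and asparagine, and CHAC1 (0.67), and 3 lower (12.5%), with DDIT3 the lowest (-0.95). At 1 h against WT 1 h 11 of the 24 were lower (45.8%, background 15.7%) and 0 higher (background 15.8%). Of 32 immediate early and AP-1 regions 12 were held higher (37.5%) and 3 lower (9.38%), with KLF4 (1.16), DUSP6 (1.10), KLF2 (0.95) and SRF (0.92) the highest. Against WT 1 h the line at 1 h was lower in 14 of the 32 (43.8%, background 15.7%). It was higher in 9 (28.1%, background 15.8%). DUSP6 (-0.60) and SRF (-0.40) were lower there and KLF4 (0.43) and KLF2 (0.59) higher. Of 31 interferon regions 7 were held higher (22.6%) and 8 lower (25.8%), near the shares of all regions, with IFIT1 (1.20) and IRF9 (-1.02) the largest. Of 23 NF-kB regions 4 were held higher (17.4%) and 5 lower (21.7%), again near those shares, with CXCL8 (1.28) at the low percentiles of 21.5 and 27.5 in the line.

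Epithelial and metabolic genes included single large gains. Of 26 intestinal identity regions 8 were held higher (30.8%, background 17.3%) and 3 lower (11.5%, background 23.5%), and MUC1, a membrane mucin, rose from percentiles 75.1 and 76.2 to 99.5 in both lists (1.89, SE 0.10). The keratin KRT8 gained 1.34 and GRHL2, a factor of epithelial junctions, 1.10, but at 1 h neither MUC1 (-0.10) nor GRHL2 (0.19) passed the test and KRT8 was lower (-0.24). Of 27 cholesterol synthesis regions 7 were held higher (25.9%) and 4 lower (14.8%), with MSMO1 (1.74) and NSDHL (1.09), both of the late steps, among the higher. Of 19 Wnt regions 5 were held higher (26.3%) and 2 lower (10.5%), and TNFRSF19 (2.01) was the highest. Of 23 TGF-beta and matrix regions 1 was held higher (4.35%) and 3 lower (13%), the lowest being the laminin receptor ITGA6 (-1.21). In 25 hypoxia and glycolysis regions 5 were held each way (20.0%).

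Of 38 promoter regions of p53 target genes 5 were higher and 5 lower at 0 h (13.2% each, background 21.3% and 29.5%), with 4 held in each direction (10.5% each, background 17.3% and 23.5%). PLK3 (0.90), whose region also covers the start of DYNLT4 with X-box letters, and GADD45A (0.76) were the highest, and TIGAR (-0.50) and CCNG1 (-0.49) the lowest. At 1 h against WT 1 h PLK3 (-0.32) and GADD45A (-0.62) were lower, CCNG1 was higher (0.26) and TIGAR (-0.17) did not pass. Of the 38, 12 were higher there (31.6%, background 15.8%) and 3 lower (7.89%, background 15.7%). At 0 h CDKN1A (0.18, adjusted p = 0.0696) and MDM2 (0.18, adjusted p = 0.0988) did not pass. MYC was higher by 0.25 (adjusted p = 0.0132) and lower at 1 h (-0.71). Of 13 regions of aryl hydrocarbon receptor targets 3 were held higher (23.1%) and 2 lower (15.4%), and CYP1A1, CYP1B1, AHRR and TIPARP, which that receptor induces, did not pass (-0.20 to 0.19). Of 16 HOX and Polycomb target regions 1 was held higher (6.25%) and 2 lower (12.5%). Of 22 regions of histone acetylation genes 2 were held higher (9.09%) and 7 lower (31.8%), with HDAC3 (-1.23), KAT7 (-0.73) and BRD2 (-0.62) the lowest. Of a list of 18 clustered protocadherins, which depend on cohesin and CTCF in neurons, 1 promoter region was tested and was not held, and PCDHGA10, which is outside that list, was held lower (-0.83).

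**Figure D3:**
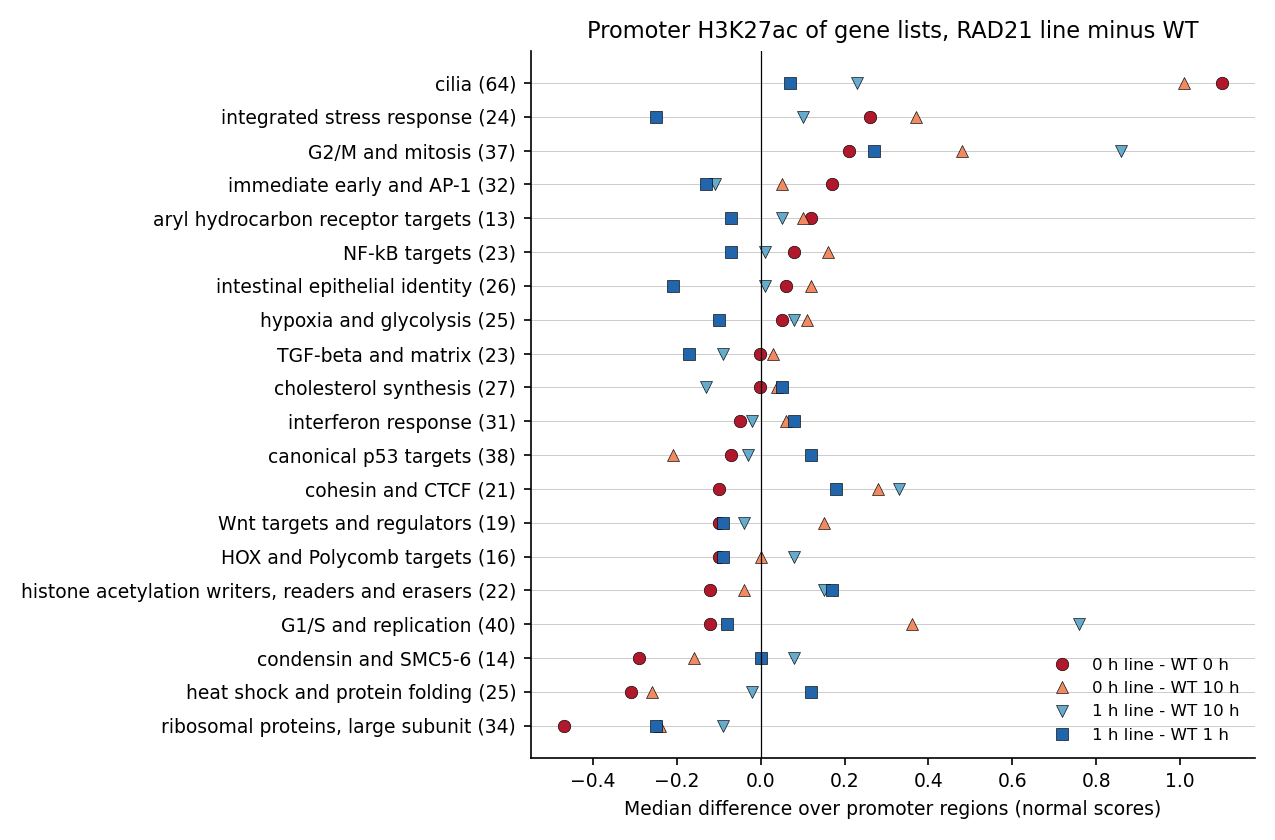
Median difference in normal scores, RAD21 line minus WT, over the promoter regions of each gene list with 10 or more regions (x axis, lists and their number of regions on the y axis), 1 marker a comparison. The ciliary list stands at 1.10 at 0 h and 0.07 at 1 h, and the ribosomal list at -0.47 and -0.25.

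Region classes differed in how often they lost rank. Among 10615 coding promoters 21.5% were higher and 32.6% lower at 0 h, and among 6668 regions away from promoters 20.5% and 25.4%. At 1 h the order turned, with 14.2% of coding promoters and 17.0% of regions away from promoters lower. Width moved with the losses: 36.9% of the regions over 3121 bp wide and 20.7% of those up to 2033 bp were lower at 0 h, while 20.9% and 21.1% were higher. By GC content, regions of 55.7 to 69.0% lost most often (35.1%, against 28.1% in those below and 25.2% in those above). Leaving out Y, with 2 regions, chromosomes ranged from 23.7% of regions lower on chromosome 6 to 35.9% on chromosome 17.

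Long or clustered stretches of H3K27ac away from promoters were examined as a class, since cohesin loops join enhancers to promoters. Regions called in WT 0 h away from promoters and within 12000 bp of each other were joined. The 5% of clusters with the greatest length called in the WT 0 h lists held 1066 tested regions. The cut lay at 2655 bp of called length, and these regions had a median width of 3683 bp. A lone wide region could therefore pass, and the class need not consist of dense groups of enhancers. The WT 0 h lists chose the clusters. WT 1 h and WT 10 h are the same line and correlated with WT 0 h at 0.89 to 0.94, so a lower rank of the RAD21 line there is in part fixed by that choice in every comparison, and the shares are descriptions. At 1 h against WT 1 h 30.9% of them were lower and 9.76% higher, against 14.4% and 13% of 5602 other regions away from promoters (background 15.7% and 15.8%). At 0 h 33.9% and 23.8% were lower, and in all 4 comparisons 13.2% and 4.84% (background 3.81%). Of all tested regions over 3121 bp wide, 36.9% were lower at 0 h, 21.6% at 1 h and 5.82% in all 4. The part of width in the shares of the clustered regions was not tested. Clustered regions had a median of -0.13 at 1 h and -0.25 for the line at 1 h against WT 10 h. For the line at 0 h it was -0.28 against WT 10 h and -0.11 against WT 0 h. The 0 h median turned to 0.13 when regions were ranked by p-value and to 0.47 by fold enrichment, under the different background of the WT 0 h lists. Lower in all 4 were 8.60% of 2280 regions over 50 kb from a start and 2.44% of 410 within 5 kb.

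**Figure D4:**
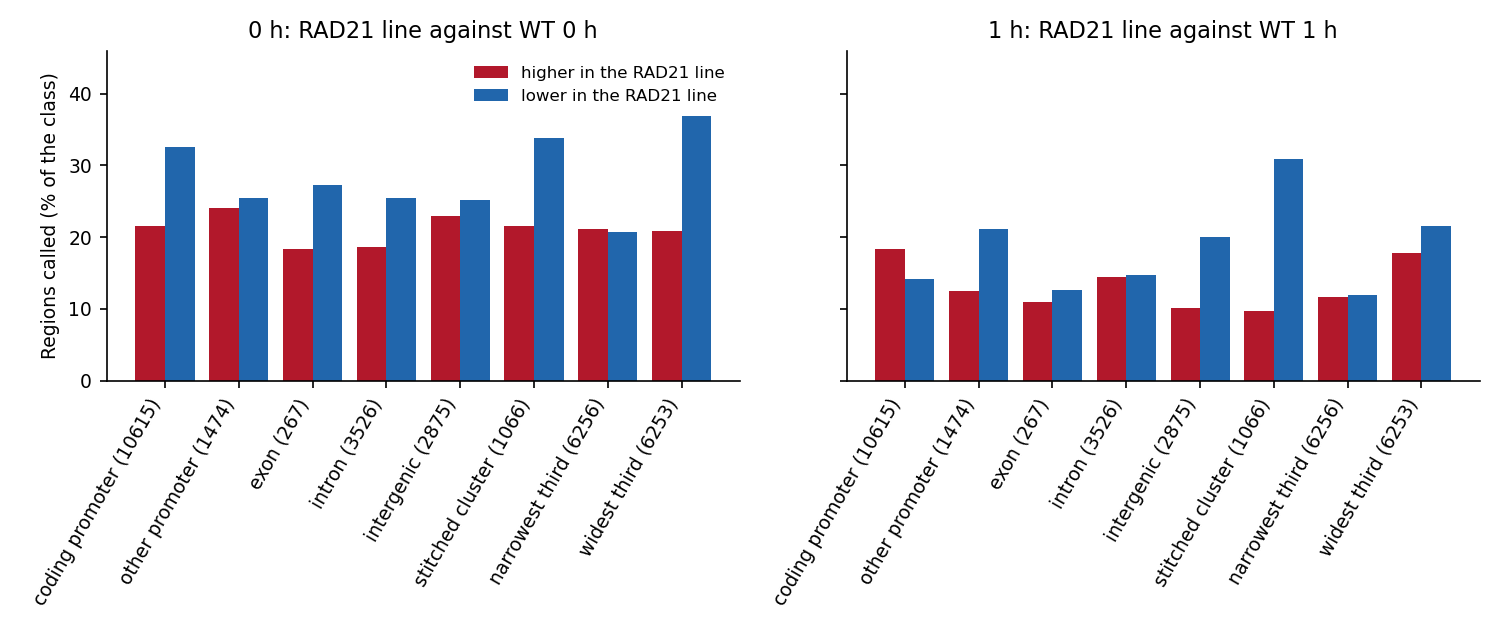
Share of tested regions called higher and lower in the RAD21 line (y axis, per cent of the class) at 0 h and at 1 h, for classes of region with their numbers (x axis), the narrowest being up to 2033 bp and the widest over 3121 bp. Clustered regions away from promoters, chosen by their length in the WT 0 h lists, are lower in 33.9% at 0 h and 30.9% at 1 h, and coding promoters in 32.6% and 14.2%.

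Regions that moved alike in all 4 comparisons, a choice made after values were seen, had another make-up. Of the 443 higher, 67.5% were coding promoters, and of the 715 lower 32.0%, against 56.6% of all tested regions. The lower set held more introns (27%, against 18.8%) and intergenic regions (29.2%, against 15.3%).

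Ranked by the smallest of the 4 differences, PPP1R12C led the gains. Its region (chr19:55622988-55630944) covers the start and the upstream part of the gene, which encodes a subunit of myosin phosphatase. It stood at percentiles 72.2, 70.7, 64.7, 65.6, 70.8 and 69.8 in the 6 WT lists taken in order of time, and at 99.6, 99.7, 99.5 and 99.7 in the RAD21 line at 0 h and 1 h. All 4 line lists were above all 6 WT lists, with differences of 2.13 (SE 0.09) at 0 h and 2.23 at 1 h. The first intron of PPP1R12C holds the AAVS1 site, at which transgenes are commonly placed in human lines. Whether the RAD21 line carries one there is not given in the sources used here, and its part in this value was not tested.

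The zinc finger genes ZNF91 (1.41 and 1.42 at 0 h and 1 h), ZNF136 (1.20 and 1.14) and ZNF845 (0.84 and 0.96), of which the latter 2 had values of -0.58 and -0.36 at 0 h by fold enrichment that did not pass the test (adjusted p = 0.303 and 0.613), followed with AASS, an enzyme of lysine breakdown (1.97 and 1.08), and TNFRSF19 (2.01 and 0.86). ZNF91 stood at 4.96 to 13.8 in the 6 WT lists and at 41.5 to 62.0 in the 4 line lists. Away from promoters, introns of RPS6KA2 (1.77 and 1.88), TCTN3 (1.24 and 1.21) and NRG2 (1.00 and 1.52) and a region 127 kb from BICC1 (1.07 and 1.01) led, with WT percentiles of 0.0720 to 11.2.

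The leading losses in all 4 comparisons were at FZD1, a Wnt receptor (-1.25 at 0 h and -1.17 at 1 h), HOGA1, ITGA6 (-1.21 and -0.87), the shared promoter of ANAPC16 and ASCC1 (-0.87 and -0.91), RPS6KL1 (-0.97 and -0.89) and PCDHGA10, a clustered protocadherin (-0.83 and -1.18). FZD1 stood at 38.0 to 47.0 in the WT lists and at 6.33 to 11.3 in the line. Away from promoters they included a region 67.0 kb from INSIG1 (-1.39 and -1.39), one in a poorly annotated part of chromosome 9 (chr9:44547181-44550348, -1.60 and -1.79) and 2 regions beside IRS1.

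The IRS1 regions lie in a gene desert of chromosome 2. The locus was added after values were seen, with 2 of its regions among the leading losses above, so its counts are a description. It holds 6 tested regions between 226911925 and 227344831, a span of 433 kb that ends 321 kb from the IRS1 start. Of these, 4 were lower at 0 h (background 29.5%) and in all 4 comparisons (background 3.81%), and 0 were higher at 0 h (background 21.3%). The region whose sequence is printed above (chr2:226999567-227003614) stood at percentiles 36.5 and 43.7 in WT 0 h, 42.8 and 42.3 in WT 1 h and 47.4 and 49.9 in WT 10 h. It stood at 4.88 and 0.429 in the line at 0 h and 1.69 and 1.87 at 1 h, below all WT lists (-1.89, SE 0.21, and -1.91). The regions 645, 388 and 321 kb from the start differed by -1.16, -1.15 and -1.39 at 0 h and by -1.20, -1.44 and -2.58 at 1 h. The region 751 kb away did not pass at 0 h (-0.08) and was lower at 1 h (-1.82), and the one 684 kb away passed at neither time (-0.05 and 0.09).

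**Figure D5:**
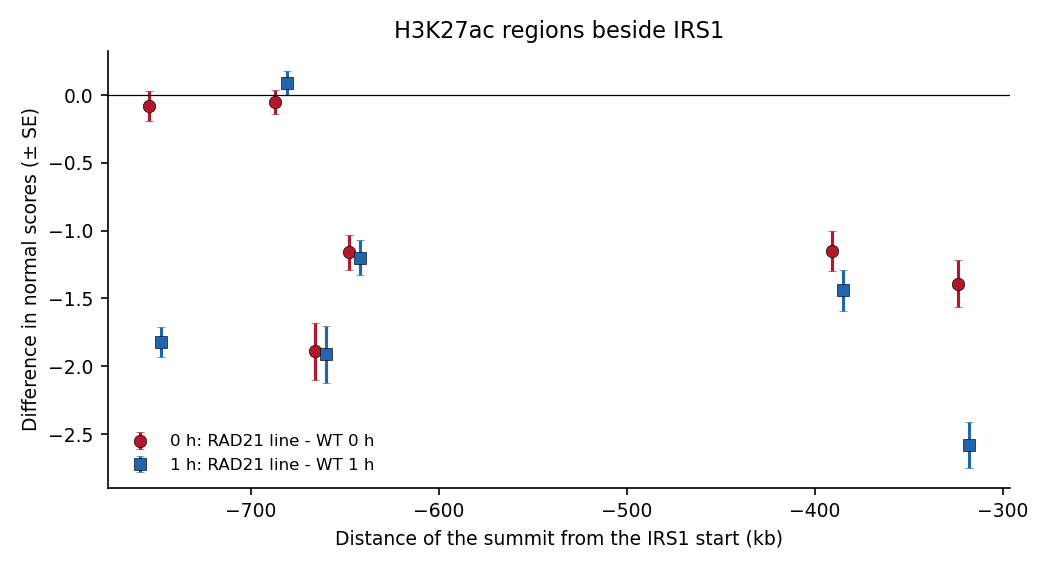
Difference in normal scores with its SE (y axis), RAD21 line minus WT, for the 6 tested regions beside IRS1 against the distance of the summit from the IRS1 start (x axis, kb), 1 marker a comparison. At 663 kb the differences are -1.89 at 0 h and -1.91 at 1 h.

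Other held losses away from promoters were larger at 0 h than at 1 h. An intron of SLC2A12, a glucose transporter, went from percentiles 55.3 and 60.8 to 6.50 and 0.179 (-2.42, and -0.95 at 1 h). A region 27.4 kb from ADGRE5 differed by -2.24, an exon of FRAS1 17.1 kb from ANXA3 by -2.22, an intron of ZNF385A near GPR84 by -2.16 and a region far from FAM27E3 on chromosome 9 by -2.10. The largest held gains away from promoters were at the telomere-like repeats near WASH6P on chromosome X (3.91) and near PLEKHG4B on chromosome 5 (3.71), which were at percentiles 98.9 to 100.0 in WT 1 h and in every list of the line and at 25.9 to 64.9 in WT 0 h and 10 h. At 1 h their differences (-0.29 and -0.08) did not pass the test. An intron of TENT4B (3.03) and regions near KBTBD2 (2.69) and UNC5CL (2.49) came next, with WT 0 h percentiles of 0.0560 to 7.07.

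Regions called in 1 line only were weak. In both RAD21 0 h lists and neither WT 0 h list were 4629 regions, of which 1873 were absent from WT 10 h as well and 1259 from WT 1 h too. The 1873 had a median summit height of 12 and 17 fragments. Of these 57.9% were intronic, against 54.8% of all 87603 regions, 112 were coding promoters (5.98%, against 14.7%), and 52.4% overlapped H3K4me1 in neither WT 0 h list, against 41.1%. Called in both WT 0 h lists and neither RAD21 0 h list were 2477, of which 1134 were in WT 10 h and 762 in WT 1 h too. Of the 1134, 96.2% overlapped H3K4me1 in both WT 0 h lists (54.9% of all regions) and 41.2% were intergenic (19.1% of all), and their median GC content was 47.0%, against 57.3% in the line-only set. H3K4me1 was measured here in WT, so a region made in the line alone need not carry it in these lists. The line lists were shallower by summit height but held more peaks, and a region missing from a list may lie under its threshold.

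The strongest promoters called in the untreated line only were CCDC184, ZNF20, DRC7, FOXJ1 and CFAP276. FOXJ1 is the master transcription factor of motile cilia, and DRC7 and CFAP276 are proteins of the motile axoneme. FOXJ1 had 63 and 84 fragments at its summit in the RAD21 line at 0 h (percentiles 76.1 and 77.6 of the list) and was called in neither WT 0 h nor WT 10 h list. It was called in all 4 lists at 1 h, at percentiles 48.2 to 55.7. DRC7 had 77 and 93 fragments, and it too was called in all 4 lists at 1 h.

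In both times of the line and no WT list were 158 regions, with 15 coding promoters. Of these 6 belonged to zinc finger genes, ZNF20, ZNF426, ZNF595, ZNF419, ZNF502 and ZNF234, against 385 of 12875 coding promoter regions with a ZNF gene (2.99%), a class chosen after it was seen. ZNF20 had 78 and 93 fragments at 0 h and 23 and 30 at 1 h.

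In all 6 WT lists and no list of the line were 186 regions, with 11 coding promoters. They included the shared promoter of the heat shock genes HSPA1A and HSPA1L (92 and 71 fragments in WT 0 h), ITGBL1 (70 and 56), the orphan receptor GPR176 (53 and 54) and PRKAA2, a catalytic subunit of AMP-activated kinase (51 and 42). HSPA1A has a near-identical copy, HSPA1B, and reads of the copies may be split or dropped. The strongest away from promoters was a region 442 kb from PIK3R1 (chr5:67068189-67071102), with 157 and 122 fragments in WT 0 h and 199 and 214 in WT 10 h.

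Binding letters at the summits set the groups apart in part. The CTCF core was present within the 300-base windows of 2.31% of tested regions, 2.04% of held higher (1.60 to 2.58) and 2.14% of held lower (1.75 to 2.61), with overlapping intervals. AP-1 letters were present in 9.30% of tested regions, 8.36% of held higher and 8.70% of held lower, but in 15.5% (13.1 to 18.4) of those lower in all 4 comparisons and in 16.3% (14.3 to 18.6) of the WT-only regions. Away from promoters the AP-1 share was 18.9% of tested, 20.5% of held higher and 17.2% of held lower regions. The set lower in all 4 comparisons and the WT-only set were not split in this way. The part of their make-up in their AP-1 shares was not tested. CCAAT, the letters of NFY, were in 18.9% of tested regions, 27.1% of those lower in all 4 and 25.7% of tested regions away from promoters. GGGCGG, those of SP factors, were in 45.1%, 24.2% and 17.8% of these sets. The AGATAA letters of GATA factors were in 6.79%, 10.5% and 12.1% of the same sets. The X-box letters were in 0.379% of tested windows, 1.45% of held higher (1.09 to 1.92) and 0.159% of held lower (0.0771 to 0.328). Of all 87603 regions the shares were 1.99% for CTCF, 10.8% for AP-1, 24.2% for NFY, 19.5% for SP, 9.88% for GATA and 0.313% for the X-box.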

How the data were processed

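H3K27ac ChIP-seq of HCT116 and its RAD21 line was deposited as 1 MACS2 narrowPeak list a sample. The submitters' processing notes name GRCh37.p13 (hg19) as the build, Trim Galore (version 0.6.6) and Bowtie2 (version 2.3.2) for the reads, SAMtools and deepTools (version 3.2.1) for the alignments, and MACS2 (version 2.2.7.1) for the peaks. Each deposited list gives a fold enrichment (a ratio at the summit), a −log10 p-value, a −log10 q-value and the summit offset. By the methods of the study an input sample served as control. Which input stands behind each list is not given in the sources used here beyond the word input in peak names. The names in RAD21 line 0 h replicate 2 carry BR2_BR3, and whether libraries were pooled is not stated. Deposited H3K4me1 lists of WT 0 h were used for overlap only, by coordinates.

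Because both the fold and the p-value follow from the fragment count and the background at a summit, the 2 were solved together for the count. Whole counts were recovered for 99.9979% or more of peaks in every list, allowing 0.002 in −log10 p plus a small share of its size, after a scale of 0.570 and 0.576 in the WT 10 h lists. Peaks of the 10 lists were merged into 87603 regions. Of these, 18757 regions called in all 10 lists were tested, so a region absent from a list was not. Ranks within each list were turned into normal scores and fitted with limma 3.58.1 (R 4.3.3, trended variance, 5 groups of 2 lists, 5 residual and 18.5 prior degrees of freedom), with Benjamini-Hochberg adjustment over all 18757 and a threshold of 0.05. The fit was tested on simulated data. A promoter region overlaps 1000 bp before to 200 bp after a start of GENCODE v44 on GRCh37. Intervals are Wilson 95% intervals and cover counting error only.

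Regions were named by rule: the promoters of RAD21, CTCF, SMC1A, SMC3, STAG1, STAG2, NIPBL, WAPL, MYC, CDKN1A, MDM2, CYP1A1, CYP1B1, AHRR and TIPARP whatever their values, the 10 coding promoters and 5 other regions with the largest held difference each way, the 5 strongest promoters and other regions called in 1 line, and up to 4 held members a gene list. Members and lists were chosen with earlier results of these data known. The ciliary list, the X-box letters, the set called alike in all 4 comparisons, the test of the line difference between times, the zinc finger count, the IRS1 locus and the remaining members named from these were added after values were seen. Same-numbered lists did not deviate together (correlations of -0.07 to 0.04 over 10 pairs of groups). Alternatives were ranking by p-value or fold, log2 counts, a narrower set of lists, a term for the form of the peak name, the replicate number as a block, other promoter bounds, a stricter q-value and each list left out. A few regions that the rule names are not reported here.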

Additional observations from a re-analysis of the deposited data

Results flagged for a closer look

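These results are given because the line difference (RAD21 line minus WT) at 1 h, against WT 1 h, minus that at 0 h, against WT 0 h, passed the test in the fit across all regions (limma, adjusted p under 0.05). It was above 0 in 4396 regions and below 0 in 3613. WT 1 h has 1 list with and 1 without the word input and WT 0 h has neither, and the part of this in the values was not tested.

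At the promoters with the largest gains at 0 h the change of the difference was -3.65 for CEP126, -3.54 for TTC26, -3.20 for TMEM67, -3.03 for WDR35, -2.94 for TMEM231, -2.74 for RHOXF1, -2.63 for CCDC30, -2.62 for TUBA1A and -2.58 for LZTFL1. At 1 h these differences ran from -0.18 (TTC26) to 0.31 (TUBA1A), and the lists of both lines lay between those of the 2 lines at 0 h. The promoters were chosen by their difference at 0 h, which the change subtracts. Away from promoters it was -4.20 near WASH6P and -3.79 near PLEKHG4B, the telomere-like repeats, -2.70 near TENT4B, -2.59 near UNC5CL and -2.43 near KBTBD2.

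At promoters lower at 0 h the change was 1.87 for LRRC59, 1.72 for ALDOC, 1.59 for TFDP2, 1.34 for EPS8, 1.29 for DAZAP2, 1.03 for PHOSPHO1, 0.90 for HSPA5 and 0.76 for TINAGL1. Away from promoters it was 2.07 near ADGRE5, 1.74 near GPR84, 1.65 near ANXA3, 1.47 near SLC2A12 and 1.20 near FAM27E3. Among the other promoters it was 0.82 for NIPBL, 0.67 for RAD21, -0.96 for MYC and -0.29 for TIPARP.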

How the results depend on the processing

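What the measure is ranked by matters most. Fold enrichment carries the background, which in the WT 0 h lists follows the signal, and summit height does not. The fit shares 1 estimate of spread over all 5 groups, and the WT 1 h pair mixes both forms (background ratios 12.3 and 1.25). The line at 1 h and WT 10 h carry the word input in all their lists, yet few regions were called between them by fold. The part of the shared spread was not tested, so a low count by fold does not show that lists were alike. Ranked by fold enrichment, 1949 regions were higher and 2171 lower against WT 0 h, 572 and 337 against WT 10 h, 345 and 207 in both, 47 and 42 for the line at 1 h against WT 10 h, and 0 and 0 at 1 h against WT 1 h (limma, where 1662 and 1641 had an unadjusted p under 0.05). Ranked by p-value, 1943 were held higher and 2290 lower, 3808 were lower against WT 10 h, 2815 and 2766 were called for the line at 1 h against WT 10 h and 1065 and 1154 at 1 h against WT 1 h. With the form of the peak name as a term, 2548 were higher and 3002 lower against WT 0 h and 2599 held lower. Called alike in all 4 comparisons were 443 and 715. Other counts stayed within 1.5 times of those reported, apart from the left-out lists given here.

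The ciliary median kept its sign in every alternative, at 0.95 by p-value, 0.72 by fold, 1.30 on log2 counts, 1.07 over regions of 6 lists, 1.17 with the name term and 1.05 to 1.12 with a list left out. The G2/M median was 0.62 by fold, 0.26 on log2 counts, 0.12 with the name term and 0.14 to 0.25 with a list left out. The ribosomal median was -0.30 by p-value, 0.29 by fold, -0.59 on log2 counts and -0.52 to -0.39. Coding promoters had 0.005 by fold, -0.12 on log2 counts, -0.07 with the name term and -0.09 to -0.06. Clustered regions had 0.13 by p-value, 0.47 by fold, -0.14 with the name term and -0.12 to -0.08. Of 447 list and class medians under alternatives, 26 changed sign.

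Named regions turned sign mostly by fold: NIPBL 0.42, CDCA5 0.49, ESCO2 0.08, DDIT3 0.76, HSPA5 0.74, CANX 0.31, XBP1 1.50, SDF2L1 0.46, LGR4 -0.58, ITGB4 0.74, PCNA 0.22, RELA 0.42, NFKB2 1.18, RPL14 0.20, BRD2 2.71, RAD21 0.03, CTCF 0.84, SMC1A -0.20, SMC3 0.07, WAPL 0.11, CYP1A1 -0.26, CYP1B1 -0.22, ZNF136 -0.58, ZNF845 -0.36, WASH6P -1.10, PLEKHG4B -0.51, BICC1 -0.10, NYAP2 0.53, and beside IRS1 1.78 and 0.46. By p-value they were BRD2 0.39, CTCF 0.01, SMC1A -0.01, NYAP2 0.14 and IRS1 0.61, and with the name term WAPL 0.12, CYP1A1 -0.23 and BICC1 -0.23. With a list left out, SMC3 ran from -0.11 to 0.03, AHRR from -0.62 to 0.21, and STAG2 reached -0.01 and an IRS1 region 0.01. Of 122 named regions called at 0 h, 39 were no longer called by fold, 17 with the name term, 13 by p-value and 2 to 6 without a 0 h list.

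With each list left out, the counts ran from 3178 to 4138 higher and 4039 to 5771 lower against WT 0 h, 1929 (without RAD21 line 1 h replicate 2) to 3234 higher and 2087 to 3239 lower at 1 h, and 2706 to 3347 and 3444 to 4604 held. The replicate block left 3975 higher and 5471 lower. The replicate numbers do not pair the lists, and the block lost none of the 122 calls. Regions called in 1 line only depend on depth: at −log10 q of 5 or more there were 1301 in the RAD21 line (505 absent from WT 10 h) and 1107 in WT (502 in WT 10 h), and 7704 in the RAD21 line where peaks had to cover 0.5 of a region. With 1 list left out they ran from 5199 to 14179 (without RAD21 line 0 h replicate 1) and from 2031 to 8637 in the RAD21 line, and from 3250 to 5955 and 1422 to 1776 in WT, since 1 list then has to call a region.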

Other observations

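Along the chromosomes, 281 bins of 10 Mb held 15 or more tested regions. The bin medians of the difference at 0 h ran from -0.31 to 0.42. In 52 bins the median was below 0 in all 4 comparisons and in 30 it was above 0.

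Promoters of zinc finger genes, which stood out among the regions found in the RAD21 line and in no WT list, were 74 of the 2062 held higher promoters (3.59%) and 65 of the 2638 held lower (2.46%), against 345 of 10615 tested (3.25%). Of the 299 higher in all 4 comparisons 13 were of this class (4.35%) and of the 229 lower 4 (1.75%).

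Of the 64 tested regions with H3K4me1 in neither WT 0 h list, 42.2% were higher at 0 h (background 21.3%) and 4.69% lower (background 29.5%). Their median was 0.39. At 1 h 10.9% were higher (background 15.8%) and 34.4% lower (background 15.7%), with a median of -0.34.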
